A study of Glycine max with 22 samples.

Results

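The GASA family genes GASA9, GASA11, GASA14 and GASA29 of soybean and the gene with the symbol SLR1 were followed in mature leaves of plants whose buds had been removed and of untreated plants. All soybean probe sets whose single gene symbol is one of these 5 names were taken, which gave 12 of the 37593 soybean probe sets on the array. GASA9, GASA11 and GASA29 had 1 probe set each, GASA14 had 3 and SLR1 had 6. Of the 12, 10 were bright enough to enter the fit over all 32776 tested probe sets, and the other 2 both belong to SLR1. The genes were selected on their signals on these same arrays, where an earlier analysis had shown them to differ between treated and untreated leaves and between ages, so their values below are a description and carry no p-value, and counts of calls among them are given for description alone.

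RNA of 22 mature leaf samples of Glycine max was hybridised to Affymetrix Soybean GeneChips, which report 1 signal per probe set. Plants grew in chambers under 16 h days, and the cultivar is not given in the labels used here. Groups are named for the day of the time course, which started when plants were 30 days old. C0 (4 samples) holds untreated leaves at that start. C15, C20 and C30 (3 samples each) are untreated leaves of plants aged 45, 50 and 60 days. D15 (3 samples) was taken at 45 days, at the end of 15 days in which every axillary and terminal bud was taken off daily. R20 and R30 (3 samples each) come from plants treated in the same way and then left to regrow shoots for 5 and 15 days, so they were as old as C20 and C30. The labels do not say how many plants a sample holds, or that samples came from separate cultures, so every error and p-value reflects only the variation among these 22 samples, which may be technical. Because whole leaves were measured, fewer cells of a type and less RNA per cell cannot be told apart.

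Gibberellins are plant hormones that promote stem elongation, leaf expansion and other growth. They bind the receptor GID1, which then joins DELLA proteins, nuclear repressors of growth, and leads to their destruction. GASA genes, named for Gibberellic Acid Stimulated in Arabidopsis, encode small secreted peptides rich in cysteine, and many family members respond to gibberellin. In rice, SLR1 (SLENDER RICE1) is the DELLA repressor. The files give the soybean gene only that symbol, and whether it encodes a DELLA protein was not checked here.

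A probe set was counted as above background on an array when its signal exceeded a floor, the 95th percentile of the 23350 oomycete and nematode probe sets on that array, which lay between 11.8 and 22.1. The median soybean signal was 57.1 to 81.3 on 21 arrays and 38.2 on R20 replicate 3. R20 replicate 3 also had an actin 3′ to 5′ signal ratio of 136, against 2.29 to 8.37 on the other arrays, so R20 differences of the 5 genes are also given without it. Among the spiked-in hybridisation controls, BioC exceeded BioB by a factor of 2.36 to 2.59 in C20 and R20, against 1.02 to 1.26 in the other 5 groups. Comparisons of C20 or R20 with another age therefore cross arrays with unlike controls, and the part of this in those comparisons was not tested.

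GASA9 (probe set Gma.3433.1.S1_at) had its highest mean signals in C0, after bud removal and early in regrowth. Its lowest means were in untreated leaves of 50 and 60 days. The 4 C0 arrays gave 5865, 3656, 543 and 450.3. At 45 days the untreated C15 arrays gave 3342, 25.4 and 189, and the D15 arrays 1886, 2342 and 2114. The D15 values were close together and lay inside the wide range of C15, so the groups overlap. At 50 days C20 gave 1.26, 10.98 and 117, and R20 gave 3702, 3353 and 1099. At 60 days C30 gave 7.11, 4.25 and 2.15, and R30 gave 676, 1363 and 304. Every regrowth array was above every untreated array of its age, and only C20 replicate 3 among the 6 untreated arrays of 50 and 60 days was above its floor.

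The log2 fold change of GASA9, on the log2(signal + 1) scale used throughout, was 3.04 ± 1.41 (SE) in D15 against C15, 7.34 ± 1.41 in R20 against C20 and 7.0 ± 1.41 in R30 against C30. Since C30 was below the floor on all of its arrays, the last of these is better read as a bound: GASA9 was at least 38.1-fold higher in R30, with the mean of R30 set against the floor of C30. Single arrays moved the estimates. Without C15 replicate 1 the D15 difference was 4.90, and without C15 replicate 2 it was 1.4. Without C20 replicate 3 the R20 difference was 8.84, without C20 replicate 1 it was 5.99, and without R20 replicate 3 it was 7.90.

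**Figure D1:**
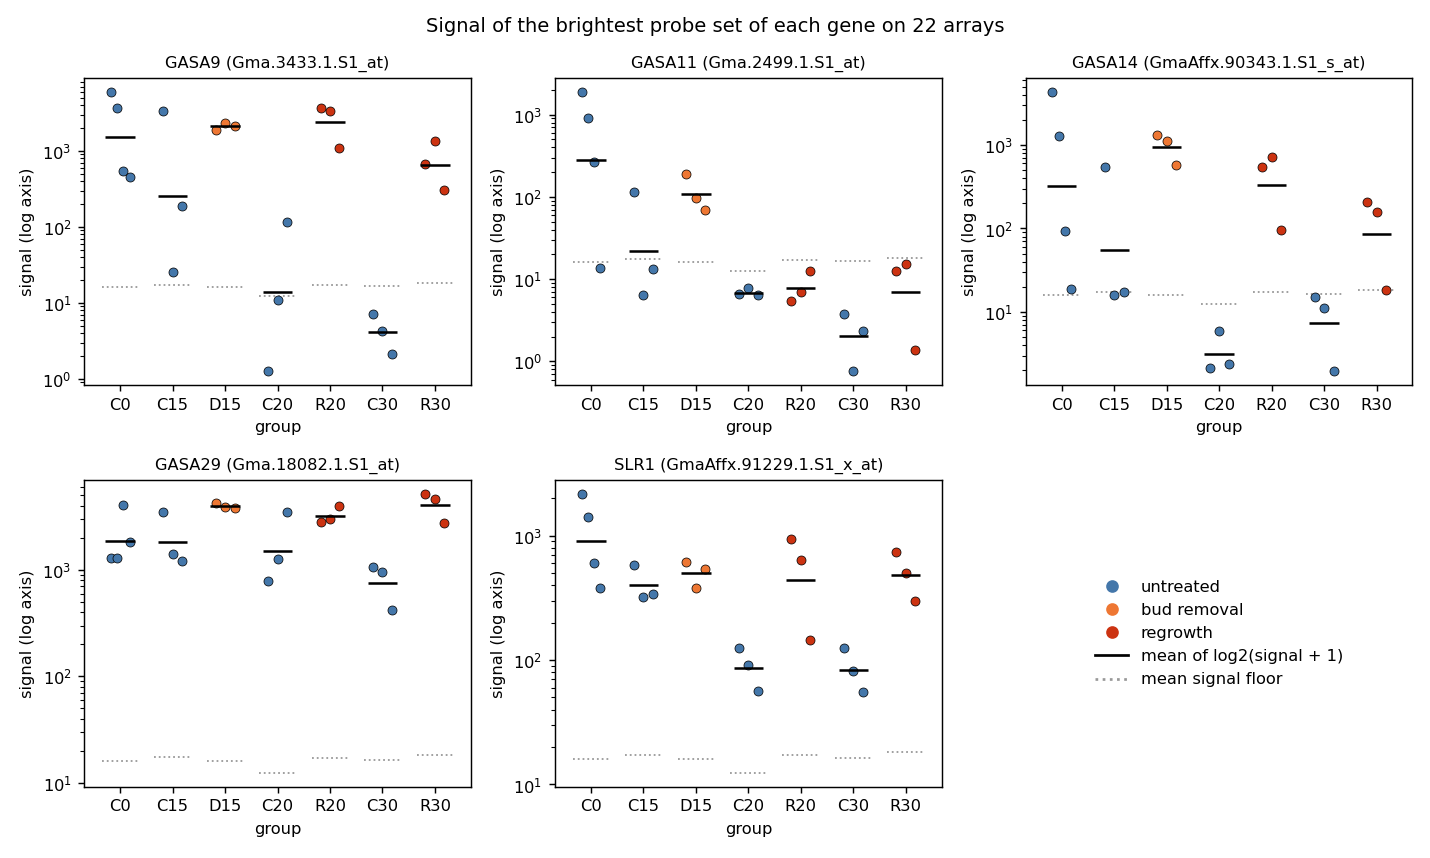
Signal (log axis) of the brightest probe set of each of the 5 genes on each of the 22 arrays, by group, with 1 point per array, a bar at the mean of log2(signal + 1) and a dotted line at the mean floor of the group. GASA9 reached 1099 to 3702 in R20 and 1.26 to 117 in C20, whereas GASA11 stayed below the floor in both.

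GASA14 is represented by 3 probe sets, and the brightest, GmaAffx.90343.1.S1_s_at, was like GASA9 high in treated leaves and low in untreated leaves of 50 and 60 days. Its C0 arrays gave 4262, 1280.2, 94.2 and 19.1. C15 gave 549, 16.1 and 17.5, and D15 gave 1305, 1123 and 581, so all D15 arrays lay above the highest C15 array, D15 replicate 3 only just. C20 gave 2.11, 5.86 and 2.39 and R20 gave 544, 708 and 94.9. C30 gave 14.9, 11.1 and 1.96, and R30 gave 208, 157 and 18.4. The regrowth and untreated arrays did not overlap at either age, though R30 replicate 3 at 18.4 was near the highest C30 array.

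For this probe set of GASA14 the log2 fold change was 4.09 ± 1.57 (SE) in D15, 6.32 ± 1.57 in R20 and 3.38 ± 1.57 in R30, each against untreated leaves of the same age. No C20 array was above the floor, and GASA14 was at least 24.9-fold higher in R20 than in C20. Without R20 replicate 3 the R20 difference was 7.22. Without R30 replicate 3 the R30 difference was 4.46, and without C30 replicate 3 it was 2.64.

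The other probe sets of GASA14 give the same order of the groups within each age on weaker signals. GmaAffx.90343.1.S1_at, which shares its cluster number with the brightest one, had D15 signals of 977, 719 and 296 against 367, 13.0 and 2.48 in C15. Its R20 signals of 318, 471 and 31.3 stood against 0.790, 1.30 and 3.57 in C20. In mean, R20 was at least 12.7-fold higher, and the log2 difference without R20 replicate 3 was 7.19. In R30 it gave 129, 86.8 and 2.06 and in C30 13.9, 2.51 and 3.00, and here the ranges overlap through R30 replicate 3. Gma.8347.1.S1_at, from another cluster, was dim, with 62.9 to 75.2 in D15, 13.9 to 58.3 in C15, 26.03 to 67.8 in R20 and 1.95 to 15.7 in C20, and its log2 difference in R20 without replicate 3 of that group was 3.40. Its R30 signals were 37.6, 36.5 and 14.3, the last of them below the floor of its array. In mean, R30 was at least 1.63-fold higher than C30, which was below the floor on all of its arrays. Another probe set with the cluster number of the brightest one, GmaAffx.90343.1.A1_at, is annotated as GASA32 and was not counted for GASA14.

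GASA11 (Gma.2499.1.S1_at) parted from GASA9 and GASA14 after day 15. C0 gave 1869, 910.5, 264 and 13.5, C15 gave 114, 6.37 and 13.1, and D15 gave 189.96, 95.9 and 69.4. The D15 arrays at 95.9 and 69.4 lay below the highest C15 array, so the groups overlap. The log2 fold change was 2.26 ± 1.28 (SE). Without C15 replicate 1 this difference was 3.42, and without C15 replicate 2 it was 1.44. On the 12 arrays of C20, R20, C30 and R30 the GASA11 signal ran from 0.758 to 15.1 and never exceeded the floor, so no fold change is given for regrowth. C0 was at least 15.9-fold higher than R20 and at least 14.9-fold higher than R30.

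GASA29 (Gma.18082.1.S1_at) was well above the floor on every array and varied less than the other GASA genes. C0 gave 1297, 1288, 4047 and 1834. C15 gave 3536, 1421 and 1222 and D15 gave 4268, 3899 and 3841. C20 gave 794, 1265 and 3495 and R20 gave 2830.1, 2996 and 3958. C30 gave 1063, 962 and 416 and R30 gave 5157, 4656 and 2738. D15 and R30 lay wholly above the untreated leaves of their age, and R20 overlapped C20 through C20 replicate 3.

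The log2 fold change of GASA29 was 1.13 ± 0.52 (SE) in D15, 1.08 ± 0.52 in R20 and 2.42 ± 0.52 in R30. Mean signals were 4183 ± 1277 (SD, n = 3) in R30 and 814 ± 348 in C30. Without C20 replicate 3 the R20 difference was 1.69, without C20 replicate 1 it was 0.62, and without R20 replicate 3 it was 0.94. Leaving out single arrays of C30 or R30 gave 2.0 to 2.70 for the R30 difference.

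SLR1 has 6 probe sets in 3 clusters, and the brightest is GmaAffx.91229.1.S1_x_at. C0 gave 2154, 1400.1, 607 and 377. C15 gave 582, 319 and 341 and D15 gave 613, 379.9 and 540.3, so bud removal and untreated leaves covered nearly the same range. C20 gave 125, 91.1 and 56.4, and R20 gave 946, 636 and 144. C30 gave 125, 82.0 and 54.9, and R30 gave 738, 502 and 298. Both untreated groups of 50 and 60 days lay below every other group, and R20 replicate 3 at 144 was the only regrowth array near them.

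The log2 fold change of SLR1 on this probe set was 0.33 ± 0.64 (SE) in D15, 2.34 ± 0.64 in R20 and 2.53 ± 0.64 in R30. Mean signals were 575 ± 405 (SD, n = 3) in R20 and 90.9 ± 34.4 in C20. Without R20 replicate 3 the R20 difference was 3.15, and without R20 replicate 1 it was 1.80. The companion GmaAffx.91229.1.S1_s_at gave 0.40, 2.41 and 2.63, each with an SE of 0.63, and 3.0 in R20 without R20 replicate 3.

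The second cluster gave a less even picture of SLR1. GmaAffx.93321.1.S1_s_at had R30 signals of 449, 365 and 121 and C30 signals of 68.9, 28.4 and 5.38, a log2 fold change of 3.53 ± 0.88 (SE). Its R20 signals were 338, 249 and 22.9 and its C20 signals 56.5, 59.6 and 37.4, so R20 replicate 3 fell below all of C20, and the log2 fold change was 1.31 ± 0.88 with that array and 2.51 without it. GmaAffx.93321.1.S1_x_at gave 1.27 ± 1.07 in R20 with R20 replicate 3, which read 1.92, and 3.01 without it. In D15 both lay near or a little above C15, at 0.06 ± 0.88 and 1.09 ± 1.07. Sign turned in D15 for the first of these when single arrays were left out, down to -0.35. The third cluster was dim: Gma.16821.1.A1_at never exceeded 23.9, and Gma.16821.1.S1_at reached 51.3 and 30.0 in C0 replicates 1 and 4 and at most 6.01 on the other 20 arrays. Probe sets ending in s_at or x_at can bind related transcripts, so their signal is not certain to be that of SLR1 alone.

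**Figure D2:**
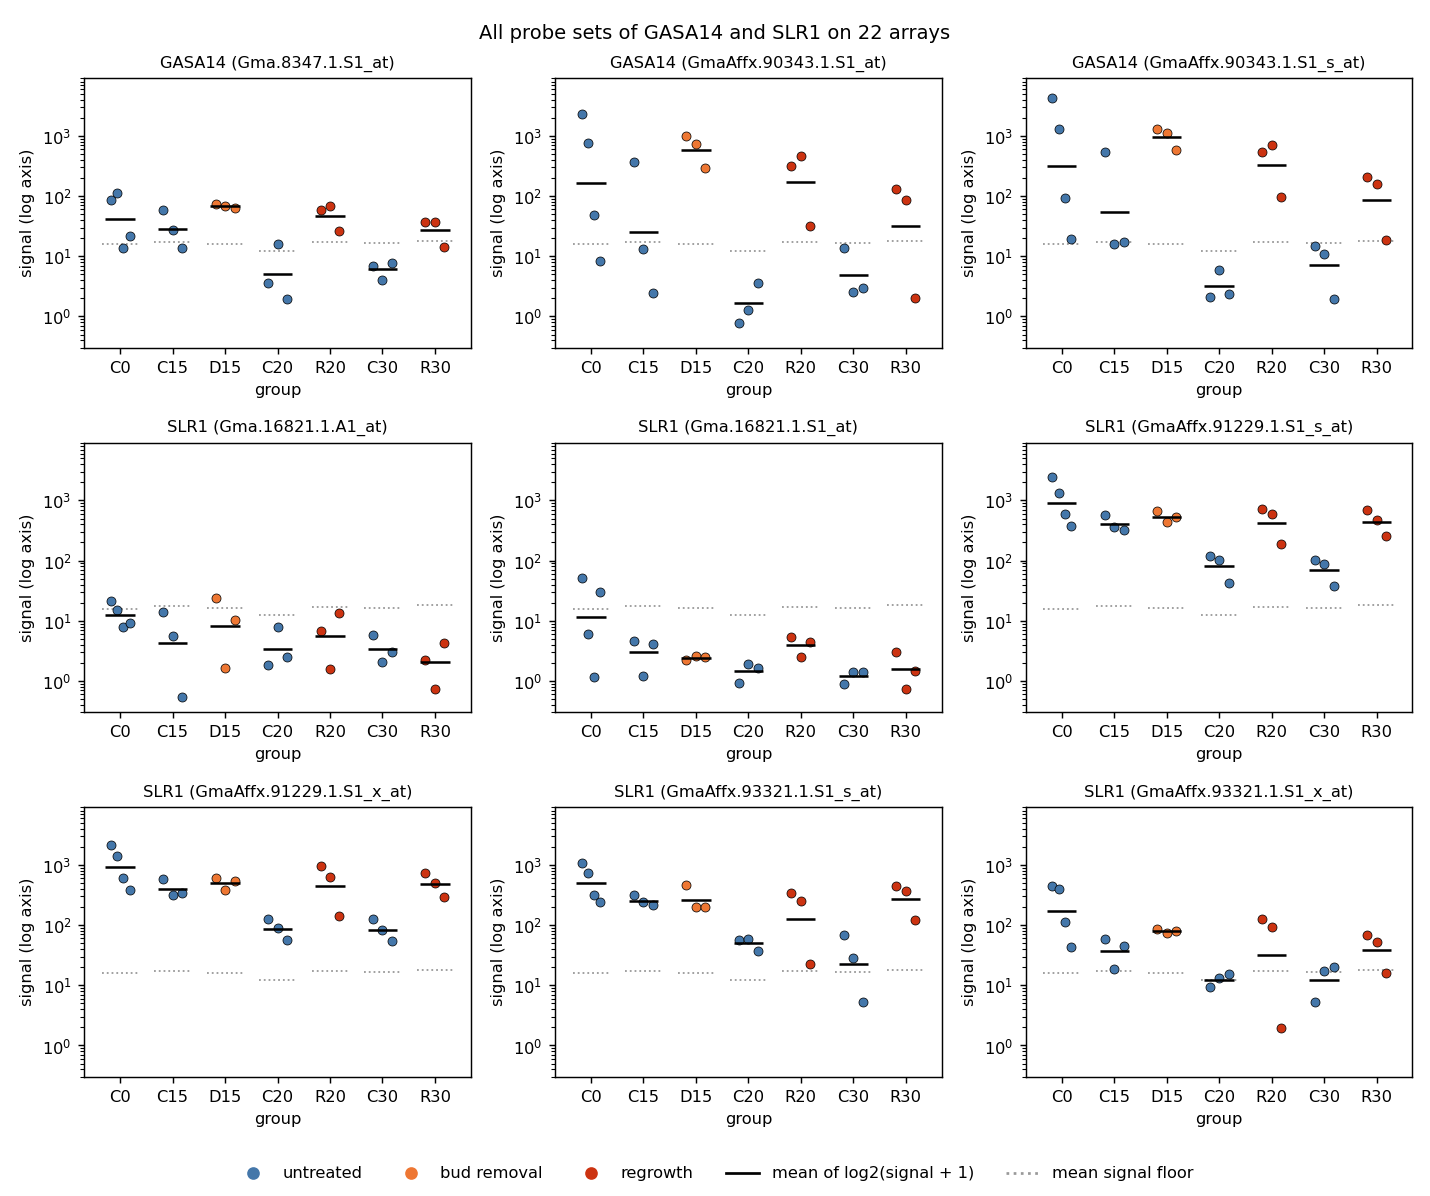
Signal (log axis) of all 3 probe sets of GASA14 and all 6 of SLR1 on the 22 arrays, by group, with a bar at the mean of log2(signal + 1) and a dotted line at the mean floor. The probe sets of GASA14 share their low C20 and C30 signals, and 2 probe sets of SLR1 (Gma.16821.1.A1_at and Gma.16821.1.S1_at) stay near or below the floor outside C0.

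In untreated leaves GASA9, GASA11, GASA14 and SLR1 had lower means at 50 and 60 days than at 30 days. GASA29 was lower in mean by less and was called at neither age. Against C0, the log2 fold change of GASA9 was -2.57 ± 1.32 (SE) in C15, -6.68 ± 1.32 in C20 and -8.21 ± 1.32 in C30, and C0 was at least 88.1-fold above C30. GASA11 gave -3.64, -5.18 and -6.54, each ± 1.19, and C0 was at least 21.3-fold above C20 and at least 16.5-fold above C30. For the brightest probe set of GASA14 the values were -2.52, -6.26 and -5.27, each ± 1.47, with C0 at least 23.9-fold above C20. SLR1 gave -1.19, -3.39 and -3.45, each ± 0.60, and GASA29 gave -0.04, -0.30 and -1.32, each ± 0.49.

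Of the 10 tested probe sets, none lay wholly below C0 in C15, 8 did in C20 and 9 in C30. Over all tested probe sets the shares with no overlap in that direction were 2.72%, 10.3% and 7.14%. By the limma fit with an adjusted p under 0.05, none was called lower in C15, 9 in C20 (all but GASA29) and 8 in C30 (all but GASA29 and GmaAffx.90343.1.S1_at). The shares of all tested probe sets called lower were 0%, 4.28% and 3.15%. These comparisons were known when the genes were picked, and nothing is read from the counts.

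For GASA9, GASA14 and SLR1, treated leaves of 50 and 60 days lay nearer to C0 in mean than untreated leaves of their age did. Against C0, GASA9 gave 0.48 in D15, 0.66 in R20 and -1.21 in R30, each ± 1.32 (SE). GASA14 gave 1.57, 0.06 and -1.89, each ± 1.47, and SLR1 gave -0.86, -1.04 and -0.93, each ± 0.60. GASA29 lay above C0 in mean at all 3, by 1.09, 0.78 and 1.10, each ± 0.49. It did not share this pattern at 50 days, where C20 stood at -0.30. At 60 days, where C30 stood at -1.32, R30 was only slightly the nearer to C0. GASA11 differed from these, with -1.38 ± 1.19 in D15 and the bounds given above for R20 and R30. All these differences share the C0 arrays, whose spread is wide.

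In D15 against C15, none of the 10 probe sets was called, beside 0.146% of all tested probe sets called higher and 0.0793% lower. The ranges of 4 lay wholly above C15 (GASA29, Gma.8347.1.S1_at and GmaAffx.90343.1.S1_s_at of GASA14, and GmaAffx.93321.1.S1_x_at of SLR1), beside 8.63% of all tested. GASA9 was called without C15 replicate 1. The median of the 10 log2 fold changes was 1.19, against -0.04 over all tested probe sets. The genes were selected on the 3 same-age comparisons, so nothing is read from these counts and medians or from those of R20 and R30.

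In R20 against C20, 6 of the 10 were called higher and none lower, beside 6.64% of all tested probe sets called higher and 11.2% lower. The 6 were GASA9, the 3 probe sets of GASA14 and both probe sets of the brightest SLR1 cluster, and the same 6 were those without overlap, beside 15.5% of all tested. The median log2 fold change was 2.38 against -0.27 over all tested. Centring each array on its median moved the latter to 0.19 and turned the split of all called probe sets from 2175 higher and 3668 lower to 3851 higher and 1721 lower, while quantile normalization gave 2281 and 2400. The same 6 probe sets of GASA9, GASA14 and SLR1 were called under both. Without R20 replicate 3 there were 7, with GmaAffx.93321.1.S1_x_at of SLR1 added, and without any 1 of the other 5 arrays there were 4.

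In R30 against C30, 5 of the 10 were called higher and none lower, beside 1.82% of all tested probe sets called higher and 0.403% lower. They were GASA9, GASA29 and 3 probe sets of SLR1, and 7 lay wholly above C30, beside 13.1% of all tested. The median log2 fold change was 2.49 against 0.05 over all tested. The count rested on single arrays: it was 0 without C30 replicate 3, R30 replicate 1 or R30 replicate 2, and 2 without C30 replicate 2. All 10 estimates were above 0 in each of the 3 same-age comparisons. Those of GASA11 in R20 and R30, which also enter the medians, compare signals below the floor, so their sign is not informative.

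**Figure D3:**
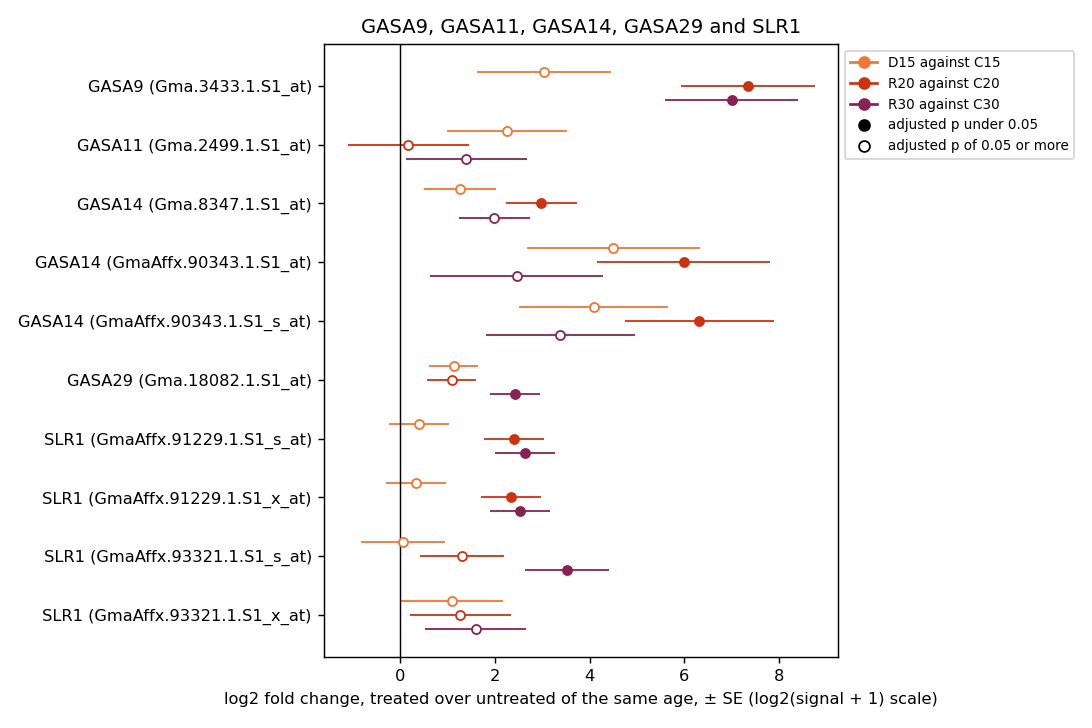
Log2 fold change (± SE) of the 10 tested probe sets in D15, R20 and R30, each against untreated leaves of the same age, on the log2(signal + 1) scale. Filled points mark an adjusted p under 0.05 in the fit over all tested probe sets. GASA9 stands at 7.34 in R20 and 7.0 in R30, where its untreated arrays were mostly or wholly below the floor.

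The order of the 7 group means differed between the genes. For GASA9 it ran R20, C0, D15, C15, R30, C20, C30, and only R30 and C20 among the neighbours had ranges that did not overlap. For GASA14 it ran C0, D15, R20, C15, R30, C30, C20, with R30 and C30 apart. For both genes only 1 of the 6 arrays of C20 and C30 was above the floor, so these groups have no order between them. For SLR1 it ran C0, R20, R30, D15, C15, C20, C30, with C15 and C20 apart. For GASA11 it ran C0, D15, C15, R30, R20, C20, C30, where the last 4 groups are below the floor and have no order. For GASA29 it ran R30, D15, R20, C0, C15, C20, C30, and every pair of neighbours overlapped.

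In C0 and C15, arrays of the same group ranked alike for several of the genes, which did not hold in every group. In C20, replicate 3 was highest for GASA9 and GASA29, and replicate 1 for SLR1. In R20, replicate 3 was lowest for GASA9, GASA14 and SLR1, and highest for GASA29 and for GASA11, which was below the floor there. In C0 the signals of GASA9, GASA11, GASA14 and SLR1 ranked the 4 arrays alike, with replicate 1 highest and replicate 4 lowest and a highest to lowest ratio of 13.0, 138, 223 and 5.71. GASA29 ranked them otherwise, with replicate 3 highest and replicate 2 lowest and a ratio of 3.14. In C15, replicate 1 was the highest for all 5 genes, by 132 times over the lowest array for GASA9 and 1.82 times for SLR1. For the 4 GASA genes, D15 arrays were closer to each other, with ratios from 1.11 for GASA29 to 2.74 for GASA11. For SLR1 the D15 ratio of 1.61 was only a little below that of C15. On GmaAffx.93321.1.S1_s_at of SLR1, D15 spread more widely (199 to 465) than C15 (214 to 318).

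Likeness between genes was measured as the mean absolute difference between their 7 group means of log2(signal + 1), each centred on the gene's own mean. Among the 10 pairs of the 5 genes, GASA29 and SLR1 were closest at 0.66 and GASA9 and GASA14 next at 0.89. GASA9 and GASA29 were farthest apart at 2.25. The measure is not scaled for range, and GASA29 and SLR1 had the narrowest ranges of group means. In C0 their centred means differed, at -0.19 for GASA29 and 1.55 for SLR1. Of the 901 named genes searched, the 3 nearest to GASA14 were CYP76O2, a cytochrome P450, at 0.42, EXP4, an expansin that loosens cell walls, at 0.56, and GH at 0.70. The same 3 genes were nearest to GASA9, at 0.65, 0.78 and 0.83. GASA11 was nearest to FAD3C, an omega-3 fatty acid desaturase, at 0.86, to GASA3 at 0.89 and to PIP1-6, an aquaporin, at 0.97. GASA11 was below the floor in 4 of the 7 groups, and GASA9 and GASA14 mostly so in C20 and C30, so their distances rest in part on background signal.

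The nearest genes to GASA29 were LOX9, a lipoxygenase, at 0.21, SS at 0.22 and MIPS, which makes the precursor of inositol, at 0.26. For SLR1 they were N-36A at 0.305, TUBB3, a beta-tubulin, at 0.32 and ASP1 at 0.36. A gene with a narrow range of group means, such as GASA29, finds close neighbours more easily on this scale than one with a wide range.

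**Figure D4:**
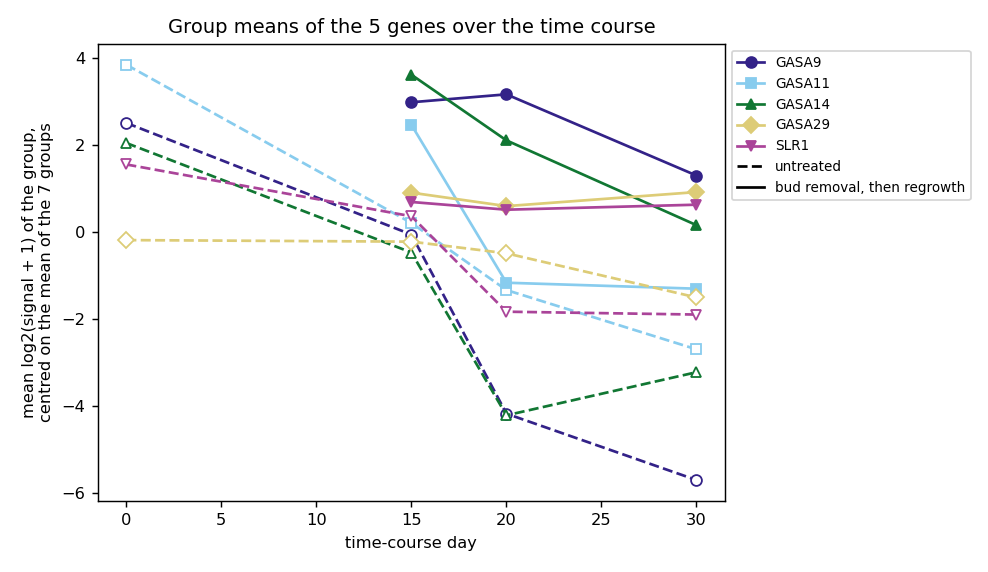
Group means of log2(signal + 1) for the brightest probe set of each gene, centred on the mean of the 7 groups, against the day of the time course. Dashed lines join untreated groups and solid lines the treated ones. Untreated and treated means of GASA9 and GASA14 lie far apart at day 20, whereas those of GASA11 lie close together and below the floor.

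Other genes of the pathway were taken by symbol, which gave 17, of which 15 were bright enough to test with 1 probe set each. They are GA20OX3, which encodes a gibberellin 20-oxidase of synthesis, GA2OX6 and GA2OX8, gibberellin 2-oxidases that inactivate the hormone, GAI1 and GAI2, whose symbol is that of an Arabidopsis DELLA gene, and 10 more GASA genes. Among these, GASA32 rests on GmaAffx.90343.1.A1_at, which shares its cluster number with the brightest GASA14 probe set. Its values may therefore not be independent of those of GASA14. In limma's test adjusted over all tested probe sets, none of the 15 passed in D15, 2 rose and 1 fell in R20, and 1 rose in R30. Of all tested probe sets, 6.64% were called higher and 11.2% lower in R20, and 1.82% higher and 0.403% lower in R30. The median log2 fold change of the 15 was 0.91, 1.33 and 1.35, against -0.04, -0.27 and 0.05 over all tested. Of the 15, 11, 11 and 13 had an estimate above 0. The R20 median is the estimate of GA20OX3, which was below the floor on every R20 and C20 array. That median, and some of these signs, therefore rest on background signal.

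GA2OX8 (GmaAffx.87970.1.A1_at) rose in both regrowth groups. It gave 18.9, 33.4 and 14.6 in C20 and 73.6, 112 and 81.5 in R20, with a log2 fold change of 2.01 ± 0.38 (SE) and a limma adjusted p of 0.00284, or 2.06 with a limma adjusted p of 0.00648 without R20 replicate 3. It gave 34.8, 20.3 and 17.5 in C30 and 73.5, 87.2 and 67.2 in R30, a difference of 1.66 ± 0.38 with a limma adjusted p of 0.0231. D15 lay above C15 on every array, by 1.10 ± 0.38, with a limma adjusted p of 0.222. A dimmer probe set of the same symbol, GmaAffx.47138.1.A1_at, went the other way in R20, at -1.31 ± 0.65 with a limma adjusted p of 0.165, so the probe sets of GA2OX8 disagree. The R30 call of GA2OX8 was lost without C30 replicate 2 or 3 or R30 replicate 1 or 2.

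GASA22 (Gma.3519.1.S1_at) rose in R20, where it gave 559, 487 and 269.9 against 16.7, 35.9 and 182 in C20, a log2 fold change of 3.09 ± 0.95 (SE) with a limma adjusted p of 0.0318. The call was lost without C20 replicate 1 or 2 or any single R20 array. In R30 it gave 3.19 ± 0.95 with a limma adjusted p of 0.095 and in D15 2.10 ± 0.95 with 0.387. All 10 of the additional GASA genes had estimates above 0 in R30 and 9 of 10 in R20 and in D15. Their medians were 1.42, 1.51 and 1.59, against 0.05, -0.27 and -0.04 over all tested probe sets. Some of these signs compare background signals. GASA6 in R30, and GASA21 and GASA32 in R20, were below the floor on every array of treated and untreated leaves. In R30, GASA21 and GASA32 were above it on 1 treated array and on no untreated one.

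GAI2 (Gma.13297.1.S1_at) fell in R20, with 48.5, 35.5 and 26.1 against 125, 119 and 85.6 in C20. The log2 fold change was -1.58 ± 0.43 (SE) with a limma adjusted p of 0.0193, which became 0.0632 with arrays centred on their medians and 0.0665 after quantile normalization. The call was also lost without C20 replicate 1 or 2 or R20 replicate 3. In D15 it gave -0.49 and in R30 0.28, each ± 0.43. The dimmer probe set of GAI2, Gma.13297.1.A1_at, gave -1.63 in D15, 0.38 in R20 and -0.27 in R30, each ± 0.90. Apart from 1 C20 array it was below the floor on every array of these groups, so its values rest on background signal. GAI1 (Gma.2533.1.S1_at) was lower in mean in all treated groups without passing on all arrays, at -1.14 ± 0.47 in D15 (limma adjusted p 0.325), -1.11 in R20 (limma adjusted p 0.101) and -0.85 in R30 (limma adjusted p 0.428). Without R20 replicate 3, GAI1 passed in R20, at -1.56 with a limma adjusted p of 0.047. Its other probe set, GmaAffx.92633.1.S1_at, gave -0.37, -0.41 and 0.19, each ± 0.64. GA20OX3 was below the floor on every array of C20, R20, C30 and R30, and gave 0.72 ± 1.12 in D15 with a limma adjusted p of 0.86.

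The difference between ages was tested itself for the 15 genes. The change of the treated minus untreated difference from D15 to R20, or from D15 to R30, passed for none of them and for 0% of the 32776 probe sets in limma's test, and none of the 15 had an unadjusted p under 0.05. For GA2OX8 the change was 0.91 ± 0.53 (SE) to R20 and 0.56 ± 0.53 to R30.

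**Figure D5:**
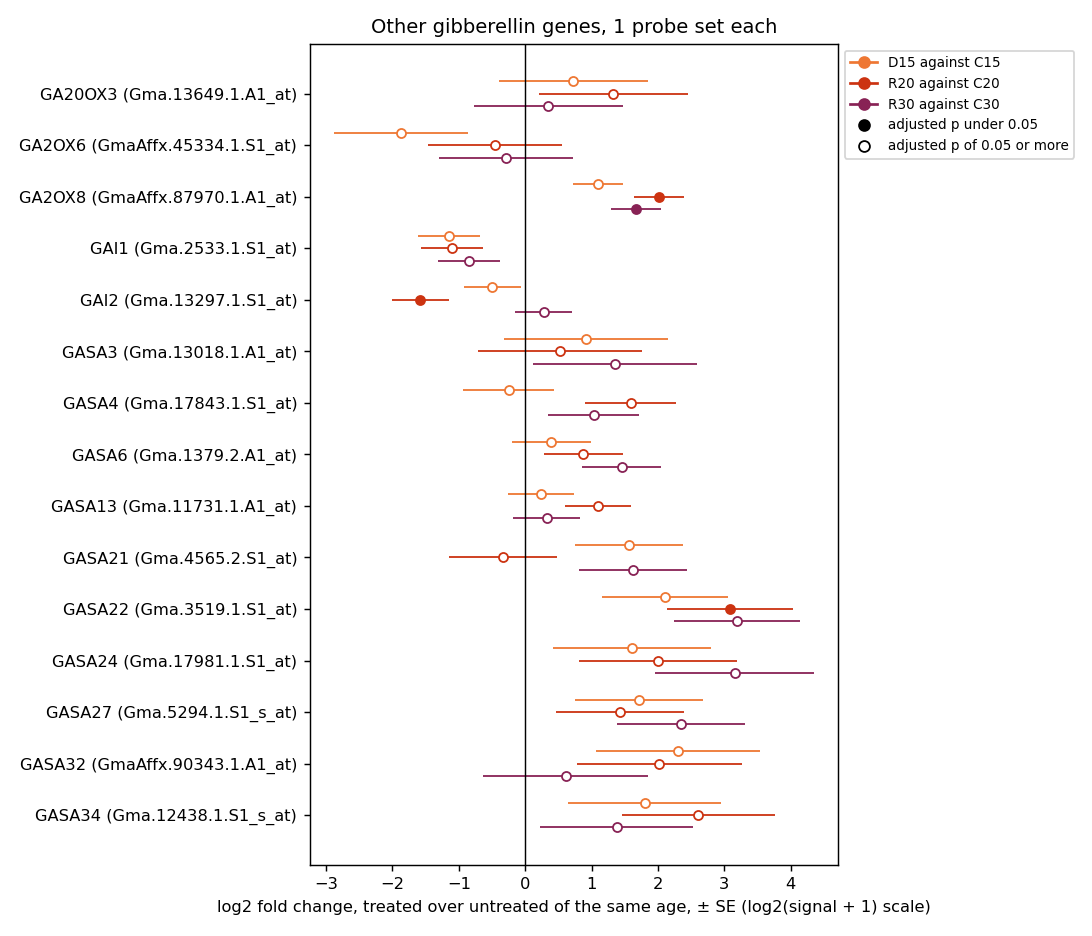
Log2 fold change (± SE) of 15 other gibberellin genes, 1 probe set each, in D15, R20 and R30 against untreated leaves of the same age. Filled points passed an adjusted p under 0.05, which are GA2OX8 in R20 and R30, and GASA22 and GAI2 in R20.

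The summed signal of 13 probe sets of 6 mature leaf genes, for the small subunit of rubisco, rubisco activase and a chlorophyll-binding protein, was 11301 to 29328 in C20 and 59149 to 62415 in R20, and 19372 to 48354 in C30 and 48854 to 60490 in R30. It was 36005 to 78965 in C15, 52276 to 70581 in D15 and 59394 to 91884 in C0. Of the 13 probe sets, 5 lay wholly higher and 1 wholly lower in R20 than in C20, 4 lay wholly higher and none wholly lower in R30 than in C30, and none was apart in D15. LOC547819 had on 1 of its probe sets a mean of 731 in C20 and 7963 in R20, whereas RCABETA, for rubisco activase, had 459 and 517, and 1 probe set of CAB3, for a chlorophyll-binding protein, had 91.5 and 45.0. The list for dividing or meristem cells, 5 probe sets of a PCNA gene and the homeobox gene SBH1 (listed as H1), summed to 137 to 280.3 in C15 and 275 to 636 in D15, to 219 to 310.5 in C20 and 168 to 227 in R20, and to 182 to 285 in C30 and 226 to 303 in R30. SBH1, the defining meristem marker of that list, was above the floor on 2 of 22 arrays and never exceeded 21.6. Seed storage genes (10 probe sets) summed to 21.8 to 99.0, and none was above the floor on all arrays of a group. The part of these markers in the values of the GASA genes and SLR1 was not tested.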

How the data were processed

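The deposited intensities are linear, with 1 value for each probe set on each array. They had been scaled by the authors to a common 2% trimmed mean on all 22 arrays, as the values show, with software not given in the sources used here. Every column matched 1 sample by its label. Probe sets were named from the platform annotation with symbols updated through RefSeq (8677 soybean probe sets with 1 symbol, 370 with several, 28546 with none), and no probe set with several symbols was named. The array is tied to no genome build here, so no coordinates or sequences are given.

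A soybean probe set was tested when above its floor on at least 3 arrays. limma 3.58.1 in R 4.3.3 was fitted to log2(signal + 1) over all 22 arrays, with 1 coefficient per group, moderated by eBayes (variance trend on). Adjustment was by the Benjamini-Hochberg method over 32776 probe sets and calls were made at an adjusted p under 0.05. Signals below the floor entered the fit as read, so fold changes that involve dim groups rest in part on background and on the pseudocount. GASA9 in R30 against C30 gave 7.0 as reported and 5.04 with a pseudocount of 16. Where a group was below the floor on all arrays, a bound is given: mean log2 signal of the brighter group minus that of the dim group after raising each dim array to its floor. The script was tested on simulated data. A gene with several probe sets is represented by the one of highest mean.

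The genes, lists and tests were chosen with earlier results of these data known. Named are every probe set of the 5 genes, the called genes of the other list or else the one of smallest p in a class, and the 3 genes of most like pattern. Lists used symbols only, since no product names were given, and root nodule markers matched no probe set. The highest correlation between 2 arrays was 0.961, so none was taken for a repeat of another. The study ran replicate courses, but no label ties a replicate number to any of them, and same-numbered samples did not deviate together in every pair, so numbers were not used to pair samples. Alternatives were the pseudocount, scaling, filter, variance trend, arrays in the fit, replicate block and leaving out single arrays; leaving R20 replicate 3 out of every fit was chosen after seeing the data.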

Additional observations from a re-analysis of the deposited data

Results flagged for a closer look

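GASA34 (Gma.12438.1.S1_s_at), another gene of the family, gave 298.1 in C0 replicate 1 and 28.9, 22.8 and 20.9 in the other C0 arrays, a gap that is large for a group of 4. C0 was the only group with enough samples for this check, which was made for 25 probe sets, and chance marks about 1 in 20. C0 replicate 1 was also the highest C0 array for GASA9, GASA11, GASA14 and SLR1.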

How the results depend on the processing

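Of 410 alternative estimates of the 10 probe sets' log2 fold changes, 404 moved by less than 1 residual SD, and 3 that lay near 0 were negative or turned. The filter, variance trend, 2-group fit and replicate block leave these estimates unchanged by design. Leaving out R20 replicate 3 likewise leaves D15 and R30 unchanged, so such estimates among the 404 could not move. The residual SD is that of each probe set and is wide where its arrays differ widely, so the count is a loose measure. The number of these probe sets called was 0 in D15, 6 in R20 and 5 in R30. It became 1 in D15 with the replicate block (GASA14), 3 in R20 and 3 in R30 when only the arrays of the 2 groups were fitted, and 3 in R30 without the variance trend. Leaving out single arrays gave 0 to 1 in D15, 4 to 7 in R20 and 0 to 5 in R30. Of the 15 other gibberellin genes, 0, 3 and 1 were called. With only the 2 groups fitted, 1 was called in R20 and 0 in R30. Leaving out single arrays gave 0 to 0 in D15, 1 to 5 in R20 and 0 to 2 in R30. With the replicate block the other genes gave 0, 3 and 1 calls, and these genes 1, 6 and 5. Same-numbered samples of treated and untreated leaves had residual correlations of 0.157, -0.158 and 0.186 in D15, -0.108, -0.0462 and -0.129 in R20, and 0.272, -0.0509 and 0.145 in R30, so the numbers were not taken to pair them. A pseudocount of 16 lowered the R30 difference of GASA9 to 5.04 and the R20 difference of GmaAffx.90343.1.S1_at to 3.47. Comparisons with C0 were run under the reported settings alone. The causes of these shifts were not tested. GASA9 in C30, the brightest GASA14 probe set in C20 and GASA11 in C20 and C30 were below the floor on all 3 arrays, so their differences from brighter groups there are known only as bounds.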
